A study of Homo sapiens with 12 samples.

Results

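Interferon-stimulated genes were followed in 4 groups of arrays from the Hodgkin lymphoma line U-H01 and from HBL-1, a line from a diffuse large B-cell lymphoma of activated B-cell type. A list of 53 such genes was taken, and a member counted as measured where a probe set of the array carried its symbol and no other. That held for 51 of the 53, out of 18417 genes measured in this way, and STAT2 and GBP1 were not measured. Among the members 1, GBP2, had more than 1 such probe set, and the one with the highest mean over the 12 arrays was used. All cells, the uninduced ones included, were transduced with doxycycline-inducible hairpins against RelB and cRel, subunits of the transcription factor NF-kB, and each transduced population was divided into a part that received doxycycline and a part that did not. The groups were 4 arrays of uninduced U-H01 and 4 of U-H01 labelled induced, which came from 2 populations, B1 and B2, and 2 arrays of uninduced and 2 of induced HBL-1, from the population C. The titles number the arrays 1 and 2 within each population, which was read as the time point. Which hairpin was used in B1, B2 or C is not in the labels, nor is how long the time points were. A knock-down of RelA, named in the study's design, was not analysed here. The study set out to compare the 2 lymphoma types after single NF-kB subunits had been depleted. Values are the deposited log2 levels, on which a difference of 1 is a factor of 2, and a level sets a gene against itself across arrays and not against another gene.

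Type I interferons bind a receptor whose kinases activate STAT proteins. These join IRF9 in a complex that enters the nucleus and binds the interferon-stimulated response element, or ISRE, in the promoters of antiviral genes. The products sense viral RNA, degrade or edit it, stop translation, block virus entry or release, or attach ISG15, a relative of ubiquitin, to other proteins. NF-kB takes part in the induction of interferon genes, and interferon-stimulated genes can also be active in tumour cells without infection.

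Promoter sequence was available in RefSeq (GRCh38.p14) for 44 of the 53 members, of which 42 were measured, as windows from 250 bases before to 50 after the start of the gene. The ISRE core, searched on both strands as GAAA, any 2 bases and GAAA, was found in 25 of the 42, or 59.5%, and in 3.57% of all 35116 promoter windows of the same length. It stood in 20 of the 30 windows of members that fell in U-H01 (66.7%), in 1 of 2 of those that rose and in 4 of 10 of those not past the threshold. The element of activated STAT dimers, searched as TTC, any 3 bases and GAA, was found in 10 of the 42 (23.8%, against 7.66% of all), and overlapped an ISRE match in 4. A kappa-B site, searched as GGGA, any base and TTTCC, was found in 3 of the 42 (7.14%, against 0.558%), and overlapped an ISRE match in 0. A match is a description of these letters and not a measured binding site. The lines that follow give 40 bases around the first ISRE match, with all bases of a match in capitals, read along the gene's own strand. The first 8 are from members that fell in U-H01, chosen to show the largest fall and the families described later, and the last 5 are the exceptions, from ISG20, which rose, and from IFIT5, SAMD9, IFI27 and LGALS3BP, which did not pass the threshold.
IFI44L, chr1:78620269-78620308, plus strand: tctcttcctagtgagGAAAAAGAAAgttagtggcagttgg
IFI44, chr1:78649756-78649795, plus strand: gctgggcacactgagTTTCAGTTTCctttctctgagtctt
DTX3L, chr3:122564317-122564356, plus strand: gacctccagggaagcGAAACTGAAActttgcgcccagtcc
IFIT1, chr10:89392492-89392531, plus strand: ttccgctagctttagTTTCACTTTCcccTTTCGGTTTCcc
IFIT3, chr10:89327826-89327865, plus strand: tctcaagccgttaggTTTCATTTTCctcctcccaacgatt
OAS3, chr12:112938316-112938355, plus strand: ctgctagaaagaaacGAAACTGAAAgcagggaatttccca
EPSTI1, chr13:42992267-42992306, minus strand: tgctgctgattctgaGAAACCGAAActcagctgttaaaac
HERC5, chr4:88456979-88457018, plus strand: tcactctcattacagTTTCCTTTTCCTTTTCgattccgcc
ISG20, chr15:88638932-88638971, plus strand: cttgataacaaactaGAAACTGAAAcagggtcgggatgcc
IFIT5, chr10:89414508-89414547, plus strand: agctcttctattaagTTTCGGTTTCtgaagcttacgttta
SAMD9, chr7:93118091-93118130, minus strand: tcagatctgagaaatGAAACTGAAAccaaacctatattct
IFI27, chr14:94110613-94110652, plus strand: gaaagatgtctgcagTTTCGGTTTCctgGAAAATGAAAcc
LGALS3BP, chr17:78979957-78979996, minus strand: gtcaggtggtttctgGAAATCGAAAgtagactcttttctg

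Read in one orientation, the same 10 letters, GAAACTGAAA, were found in the windows of 10 members. Of these, 6 fell in U-H01 (BST2, DTX3L, IFI44, IFITM1, OAS3 and TRIM21), 1 rose (ISG20), 2 did not pass the threshold (IFIT5 and SAMD9), and GBP1 was not measured. The letters GAAACCGAAA were found in 8 members, of which 6 fell (EPSTI1, IFIT1, IFITM3, ISG15, MX1 and PARP12) and 2 did not pass (IFI27 and IFIT5). These 2 cores were thus shared by members called and not called, as was GAAAATGAAA, in 3 members of which 2 fell and 1 did not pass. The letters GAAATCGAAA were found in 2 members, neither past the threshold (IFIT5 and LGALS3BP). Found only in members that fell were 4 others, each in 2 to 4 members (GAAAAGGAAA, GAAAACGAAA, GAAAGTGAAA and GAAATAGAAA). Members that fell held 30 of the 42 measured windows, and a link between a core and the change was not tested.

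Arrays of the same group correlated at 0.991 or more over all genes. Uninduced and labelled induced U-H01 arrays correlated at only 0.893 to 0.909, against 0.887 to 0.898 between uninduced U-H01 and uninduced HBL-1. Labelled induced U-H01 arrays correlated at 0.904 to 0.915 with uninduced HBL-1 and at 0.903 to 0.914 with induced HBL-1. In a check for mixed-up samples, 4 U-H01 arrays failed to match the remaining 4. RELB did not fall past the threshold in U-H01 (-0.15 ± 0.09 log2, limma adjusted p = 0.209) or in HBL-1 (-0.19 ± 0.12, adjusted p = 0.744). REL, the gene of cRel, read 0.20 ± 0.09 in U-H01 (adjusted p = 0.0716) and -0.49 ± 0.12 in HBL-1 (adjusted p = 0.121). Of 11 Hodgkin markers, 11 lay above the array median in uninduced U-H01 and 6 in U-H01 labelled induced. Their summed log2 level ran from 91.3 to 93.3 and from 68.9 to 71.0 in these groups, and from 72.0 to 72.4 in HBL-1. That of 8 B-cell markers ran from 53.2 to 54.5 in uninduced U-H01, from 65.5 to 68.1 in U-H01 labelled induced and from 80.3 to 81.0 in HBL-1, and MS4A1, a defining B-cell marker, read 4.49 and 4.52 in the 2 U-H01 groups. The 11 markers of T and NK cells summed to between 54.5 and 57.2 and the 9 of myeloid cells to between 39 and 41.9 in all groups. Those of stroma, endothelium and epithelium, also 11, summed to between 62.4 and 66.5. Doxycycline in U-H01 thus cannot be told apart from whatever else separates the 2 label groups, and the part of these markers in the results was not tested. The labels do not tell whether arrays within a group were separate cultures. The p-values therefore reflect spread among these arrays only, and that spread may be technical.

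Most members were lower in the U-H01 arrays labelled induced than in the uninduced ones. Of the 51, 38 fell, 2 rose (IFI16 and ISG20) and 11 did not pass the threshold, an adjusted p under 0.05 in limma over all 18417 genes. That is 78.4% of the members called, where 45.8% of all genes were called, 23.5% lower and 22.4% higher. The members were chosen with earlier results of these data known, so the 2 shares are a description and not a test. The median change was -0.92 log2 for the members and 0.03 for all genes, and 24 members changed by more than 2-fold, as did 13% of all genes. The 4 arrays of one group did not overlap the 4 of the other in 37 members, where 41.1% of all genes did not overlap. Within the 4 pairs of population and time point, 35 members were lower in every pair and 3 higher in every pair. The share of all genes alike in every pair was not counted, so these numbers describe the members only. In bulk RNA, fewer expressing cells and less RNA per cell cannot be told apart. When each array was centred on its median, the median change of all genes moved to 0.18, that of the members to -0.77, and 9 members were called higher and 34 lower, where the deposited values gave 2 and 38. Of all genes 40.8% were then called higher and 18.1% lower. The calls gained were those of IRF1, IFIT5, SAMD9, LGALS3BP, IFI27, USP18 and HERC6, all higher, and the calls lost were IRF7, OAS1, ISG15 and TRIM22. Of the 11 members that did not pass, 7 did when 1 array was left out: LGALS3BP without uninduced replicate 1, IRF1 and IFIT5 without uninduced replicate 3, SP100 without replicate 4 of either group, ADAR without labelled induced replicate 4, and SAMD9 and USP18 without labelled induced replicate 1. Their adjusted p then lay between 0.0231 and 0.0461. In U-H01 labelled induced 11 members lay under the lower quartile of the arrays, close to background: IFIT1, IFIT2, IFITM3, RSAD2, IFI44L, IFI44, HERC5, HERC6, PARP9, DTX3L and GBP2. A fall to such a level may be understated, and its factor is best read as a lower bound.

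**Figure D1:**
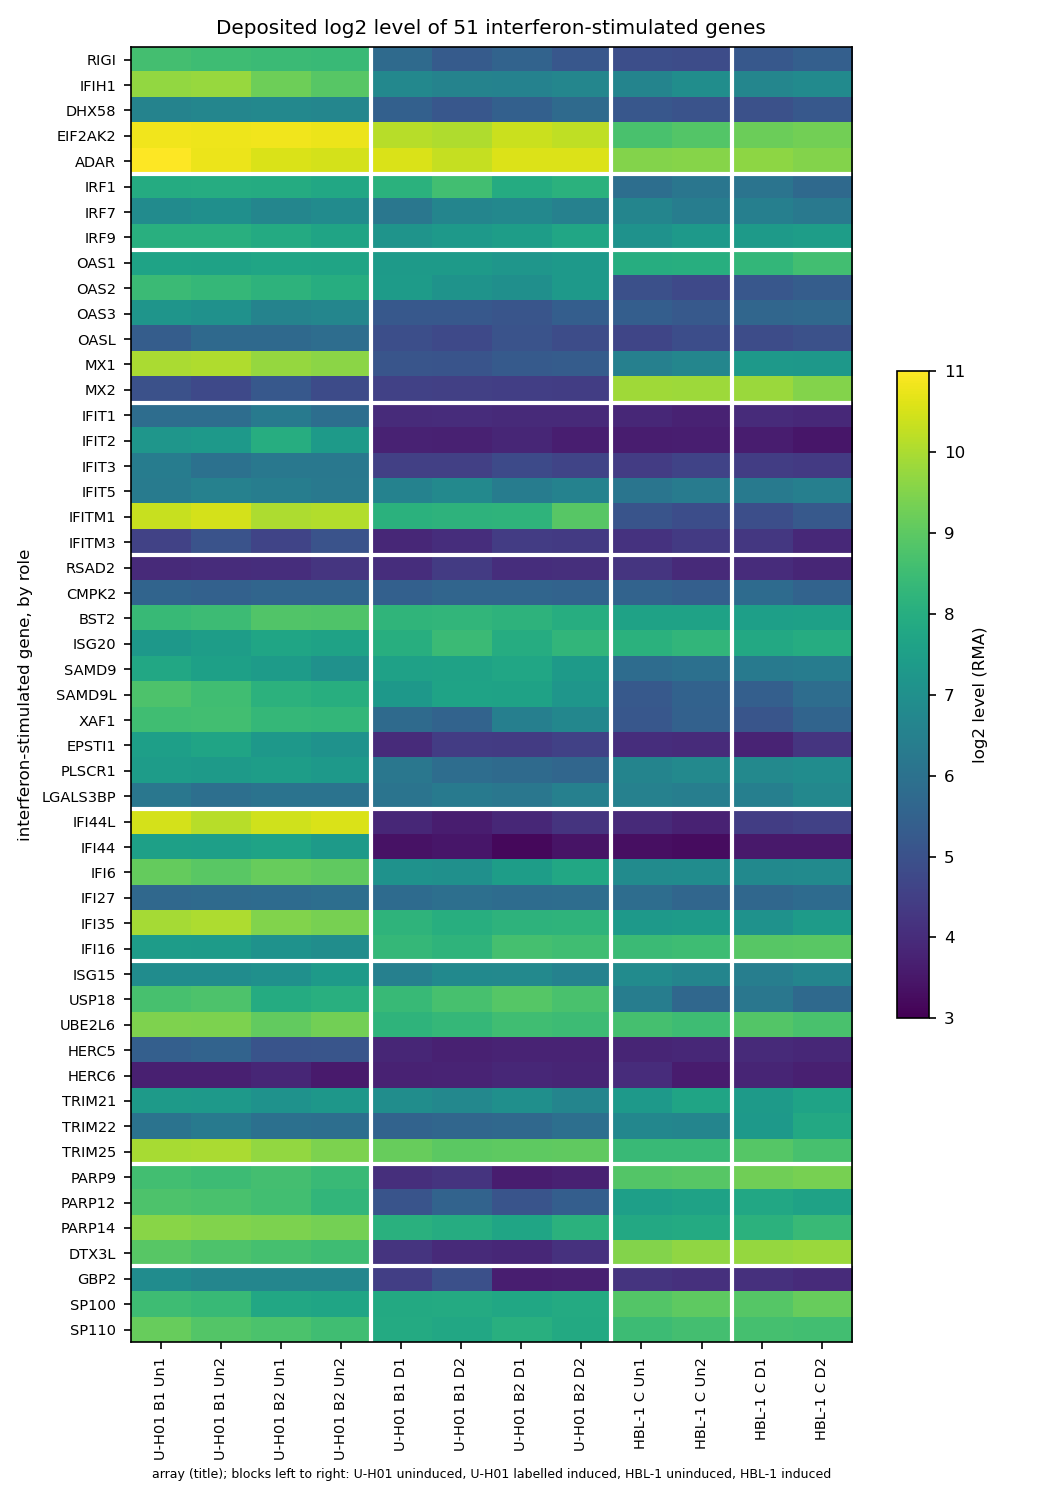
Heat map of the deposited log2 level of the 51 measured members (rows, in blocks by role) in the 12 arrays (columns, in blocks by group). Most rows are brighter in the 4 uninduced U-H01 arrays than in the 4 labelled induced, while MX2, PARP9 and DTX3L are bright in the 4 HBL-1 arrays.

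The cytosolic RNA sensors fell in 4 of 5 members. RIGI, which detects the ends of viral RNA, read 8.62, 8.50, 8.46 and 8.42 in uninduced U-H01, 5.76, 5.28, 5.54 and 5.18 in U-H01 labelled induced, 4.93 and 4.87 in uninduced HBL-1 and 5.20 and 5.43 in induced HBL-1. The uninduced U-H01 arrays lay above all others, and those labelled induced lay above the uninduced HBL-1 arrays. The change in U-H01 was -3.06 ± 0.09, a factor of 8.34 (adjusted p = 3.25e-11). IFIH1, the sensor of long double-stranded RNA, fell by 2.78, from 9.41 ± 0.39 to 6.63 ± 0.08 (SD, n = 4 each), which is near the 6.77 of uninduced HBL-1. DHX58, a related helicase that tunes both sensors, fell by 1.20. EIF2AK2, the kinase that stops translation on double-stranded RNA, read 10.82, 10.81, 10.82 and 10.77 in uninduced U-H01, 10.14, 10.04, 10.35 and 10.25 in U-H01 labelled induced, 8.71 and 8.86 in uninduced HBL-1 and 9.19 and 9.29 in induced HBL-1. All U-H01 arrays exceeded all HBL-1 arrays, the label groups of U-H01 did not overlap, and the fall was 0.61 ± 0.08 (adjusted p = 2.79e-05). ADAR, which edits adenosines in double-stranded RNA, did not pass the threshold in U-H01 (-0.21 ± 0.11, adjusted p = 0.136), and was higher in uninduced U-H01 than in uninduced HBL-1 by 1.19 ± 0.13.

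The interferon regulatory factors among the members, IRF1, IRF7 and IRF9, changed by less than 2-fold. IRF9, the DNA-binding part of the complex that recognises the ISRE, read 8.04, 8.04, 7.89 and 7.67 in uninduced U-H01, 7.15, 7.30, 7.45 and 7.74 in U-H01 labelled induced, 7.07 and 7.29 in uninduced HBL-1 and 7.36 and 7.44 in induced HBL-1. The U-H01 groups overlapped, and the fall was 0.50 ± 0.13 (adjusted p = 0.00634). IRF7, the factor that amplifies interferon transcription, read 6.85, 6.97, 6.67 and 6.86 in uninduced U-H01, 6.18, 6.64, 6.74 and 6.52 in U-H01 labelled induced, 6.65 and 6.40 in uninduced HBL-1 and 6.45 and 6.25 in induced HBL-1. These groups overlapped as well, and the call at -0.32 ± 0.11 (adjusted p = 0.037) was lost without uninduced replicate 1 or 2, labelled induced replicate 1 or 4, or any 1 of the HBL-1 arrays, with adjusted p between 0.0546 and 0.155. It was also lost after quantile normalization (-0.18, adjusted p = 0.17) and median centring (-0.17, adjusted p = 0.189). IRF1, a factor also induced by NF-kB and by interferon gamma, read 7.93, 7.95, 7.92 and 7.79 in uninduced U-H01, 8.12, 8.57, 7.92 and 8.12 in U-H01 labelled induced, 5.91 and 6.15 in uninduced HBL-1 and 6.09 and 5.73 in induced HBL-1. It did not follow the majority: its change in U-H01 was 0.29 ± 0.12 (adjusted p = 0.0682), and all U-H01 arrays exceeded all HBL-1 arrays, by 1.87 ± 0.14 between the uninduced groups (adjusted p = 3.26e-07).

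All 6 OAS and MX members fell in U-H01, and they differed most in their standing against HBL-1. MX1, a GTPase that traps the cores of incoming viruses, read 9.99, 10.06, 9.73 and 9.62 in uninduced U-H01, 5.12, 5.08, 5.28 and 5.34 in U-H01 labelled induced, 6.49 and 6.68 in uninduced HBL-1 and 7.29 and 7.26 in induced HBL-1. The labelled induced arrays were the lowest of the 12 and the uninduced U-H01 arrays the highest, with HBL-1 between them. The change was -4.65 ± 0.11, a factor of 25.1 (adjusted p = 4.11e-12). MX2, its neighbour, whose product acts against retroviruses at the nuclear pore, read 4.99, 4.77, 5.21 and 4.82 in uninduced U-H01, 4.55, 4.50, 4.48 and 4.45 in U-H01 labelled induced, 9.85 and 9.84 in uninduced HBL-1 and 9.81 and 9.50 in induced HBL-1. Every HBL-1 array exceeded every U-H01 array, by a factor of 29.8 between the uninduced groups (adjusted p = 6.53e-12), and the fall within U-H01 was 0.45 (adjusted p = 0.00122). The OAS enzymes make the oligoadenylates that switch on RNase L. OAS1 read 7.63, 7.61, 7.69 and 7.68 in uninduced U-H01, 7.36, 7.36, 7.21 and 7.31 in U-H01 labelled induced, 7.98 and 8.0 in uninduced HBL-1 and 8.28 and 8.58 in induced HBL-1. It was lower in uninduced U-H01 than in uninduced HBL-1 (-0.34 ± 0.10, adjusted p = 0.014) and fell by 0.34 in U-H01 (adjusted p = 0.00331), with no overlap between any 2 of these groups. Without uninduced HBL-1 replicate 1 the difference between the lines was -0.20 (adjusted p = 0.371), and after median centring the change in U-H01 was -0.20 (adjusted p = 0.062), neither past the threshold. OAS2 and OAS3, by contrast, were higher in uninduced U-H01 than in uninduced HBL-1, by 3.39 ± 0.14 and 1.55 ± 0.14. OAS2 fell by 1.04 and OAS3 fell by 1.64. OASL, a relative without enzyme activity, fell by 0.78.

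**Figure D2:**
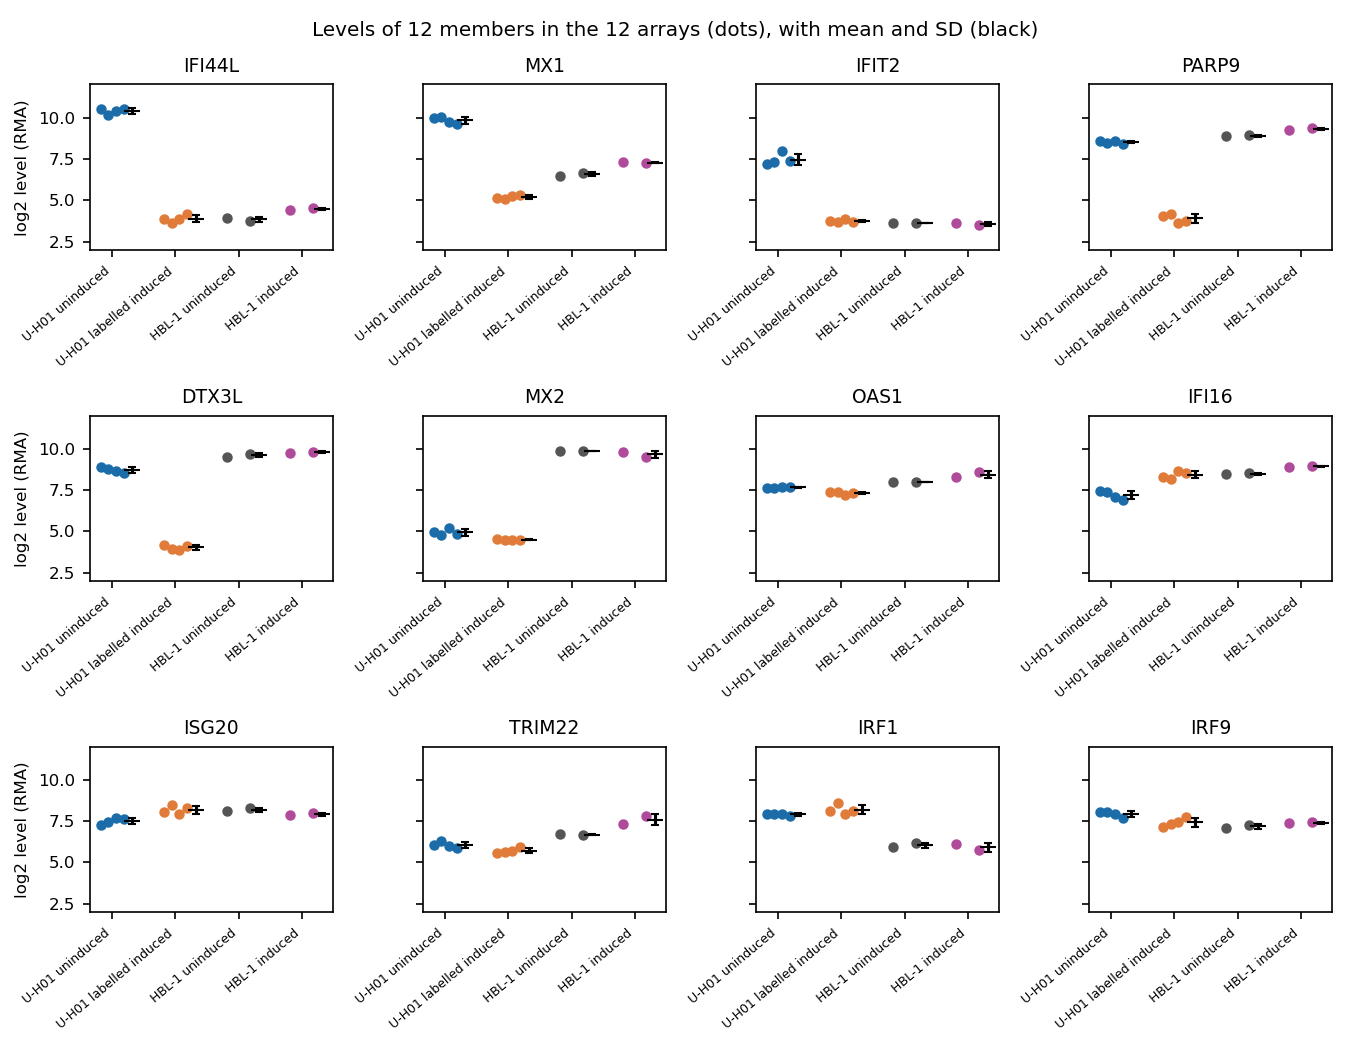
Log2 level (vertical axis) of 12 members in the 12 arrays, 1 dot an array, by group (horizontal axis), with the group mean and SD in black. IFI44L, MX1 and IFIT2 are high in uninduced U-H01 alone, PARP9 and DTX3L are low in U-H01 labelled induced alone, MX2 is high in HBL-1, and IFI16 and ISG20 are lowest on average in uninduced U-H01.

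Of the IFIT and IFITM members, 5 of 6 fell. The IFIT family includes proteins that bind viral RNA. IFIT2 read 7.19, 7.32, 8.0 and 7.37 in uninduced U-H01 and 3.76, 3.72, 3.86 and 3.68 in U-H01 labelled induced. It read 3.63 and 3.66 in uninduced HBL-1 and 3.64 and 3.50 in induced HBL-1. The 8 arrays outside the uninduced U-H01 group lay close together at the low end. The change was -3.71 ± 0.12, a factor of 13.1 (adjusted p = 8.57e-11). IFIT1 and IFIT3 fell by 1.99 and 1.57, whereas IFIT5, of the same cluster, read 0.20 ± 0.08 (adjusted p = 0.0751) and ranged only from 6.11 to 6.78 over the 12 arrays. IFITM1 and IFITM3 keep viruses from fusing with cell membranes. IFITM1 went from 10.23 ± 0.22 to 8.36 ± 0.37 (SD, n = 4 each) and stayed above the 4.98 and 5.08 of the HBL-1 groups, and IFITM3 fell by 0.65.

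The other antiviral effectors were divided: 5 of 10 fell, 1 rose and 4 did not pass. EPSTI1 fell by 3.05, XAF1, which promotes cell death, by 2.32, PLSCR1, a membrane scramblase, by 1.53, SAMD9L by 0.93 and BST2, which holds budding virus at the cell surface, by 0.47. ISG20, an RNA exonuclease, went the other way and read 7.27, 7.46, 7.69 and 7.62 in uninduced U-H01, 8.01, 8.46, 7.95 and 8.27 in U-H01 labelled induced, 8.10 and 8.26 in uninduced HBL-1 and 7.84 and 7.96 in induced HBL-1. The U-H01 groups did not overlap, and the rise was 0.66 ± 0.11 (adjusted p = 0.000214), to the level of uninduced HBL-1, with a 95% interval of -0.29 to 0.29 for the difference between labelled induced U-H01 and uninduced HBL-1. RSAD2, which makes a nucleotide that ends viral RNA chains, and its neighbour CMPK2 passed no test between groups, and RSAD2 lay below the lower quartile of the arrays in the means of all 4 groups, where a change would be hard to see. SAMD9 (0.13 ± 0.10) did not pass in U-H01 and was higher in uninduced U-H01 than in uninduced HBL-1 by 1.55 ± 0.13. LGALS3BP, a secreted protein that binds galectins, read 6.18, 5.93, 6.04 and 6.04 in uninduced U-H01, 6.08, 6.29, 6.16 and 6.48 in U-H01 labelled induced, 6.51 and 6.43 in uninduced HBL-1 and 6.45 and 6.75 in induced HBL-1. Its change in U-H01 did not pass (0.21 ± 0.10, adjusted p = 0.136), and it was lower in uninduced U-H01 than in uninduced HBL-1 (-0.42 ± 0.13, adjusted p = 0.0179), a call lost without array 2 of uninduced B1 or without uninduced HBL-1 array 1.

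The IFI genes held both the largest fall and the largest rise. IFI44L read 10.49, 10.16, 10.43 and 10.54 in uninduced U-H01, 3.89, 3.64, 3.90 and 4.19 in U-H01 labelled induced, 3.95 and 3.76 in uninduced HBL-1 and 4.45 and 4.53 in induced HBL-1. Uninduced U-H01 stood alone at the high end, and the labelled induced arrays overlapped those of uninduced HBL-1. The change in U-H01 was -6.50 ± 0.11, a factor of 90.5 (adjusted p = 2.35e-13). IFI44, next to it on chromosome 1, read 7.55, 7.51, 7.63 and 7.35 in uninduced U-H01, 3.38, 3.49, 3.17 and 3.41 in U-H01 labelled induced, 3.31 and 3.25 in uninduced HBL-1 and 3.55 and 3.53 in induced HBL-1, with the same order of the groups and a change of -4.15 ± 0.09 (adjusted p = 2.06e-12). Levels this low lie under the lower quartile of the arrays, 4.18 to 4.28, near background, where a factor is understated. IFI6, which hinders viral replication at the endoplasmic reticulum, and IFI35 fell by 1.72 and 1.55. IFI27 read 0.07 ± 0.08 (adjusted p = 0.535). IFI16, a sensor of DNA, read 7.42, 7.39, 7.09 and 6.92 in uninduced U-H01, 8.31, 8.20, 8.63 and 8.56 in U-H01 labelled induced, 8.45 and 8.51 in uninduced HBL-1 and 8.92 and 8.94 in induced HBL-1. Uninduced U-H01 was the lowest group without overlap, and the rise was 1.22 ± 0.13, a factor of 2.32 (adjusted p = 4.74e-06), up to a level that differed from uninduced HBL-1 by -0.06 ± 0.16 (adjusted p = 0.835).

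Among the ISG15 and TRIM genes, which act through ubiquitin and its relative ISG15, 6 of 8 fell. The ligase HERC5 fell by 1.49 and the conjugating enzyme UBE2L6 by 0.93, while ISG15 itself fell by 0.39 (adjusted p = 0.0129), a call lost without uninduced replicate 4 or labelled induced replicate 4, both of B2 (adjusted p = 0.0621 and 0.0544), and after quantile normalization (-0.30, 0.0618) or median centring (-0.24, 0.076). USP18, which removes ISG15 and damps the interferon receptor, did not pass (0.31 ± 0.17, adjusted p = 0.17) and was higher in uninduced U-H01 than in uninduced HBL-1 by 2.32 ± 0.21. HERC6 read 0.10 ± 0.08, at a level under the lower quartile in all 4 groups, where a fall could hardly be seen. TRIM25, the ligase that activates RIGI, and TRIM21, the cytosolic antibody receptor, fell by 0.72 and 0.42. TRIM22, which restricts viral transcription, read 6.06, 6.29, 5.97 and 5.88 in uninduced U-H01, 5.56, 5.63, 5.72 and 5.93 in U-H01 labelled induced, 6.70 and 6.65 in uninduced HBL-1 and 7.34 and 7.83 in induced HBL-1. Both HBL-1 groups exceeded all U-H01 arrays. The U-H01 groups overlapped, and the fall there, 0.34 (adjusted p = 0.033), did not pass without either uninduced or either labelled induced array of B1, or without array 1 of uninduced B2, with adjusted p between 0.0596 and 0.141. Quantile normalization (-0.21, adjusted p = 0.17) and median centring (-0.19, adjusted p = 0.169) lost it too.

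The ADP-ribosylation genes PARP9, PARP12, PARP14 and DTX3L all fell in U-H01. DTX3L, a ubiquitin ligase that works in a pair with PARP9, read 8.92, 8.76, 8.64 and 8.51 in uninduced U-H01, 4.21, 3.94, 3.88 and 4.13 in U-H01 labelled induced, 9.52 and 9.68 in uninduced HBL-1 and 9.74 and 9.81 in induced HBL-1. PARP9 read 8.59, 8.49, 8.60 and 8.43 in uninduced U-H01, 4.08, 4.20, 3.64 and 3.73 in U-H01 labelled induced, 8.87 and 8.93 in uninduced HBL-1 and 9.25 and 9.36 in induced HBL-1. In both genes the 4 labelled induced arrays lay more than 4 log2 units under every other array, and uninduced U-H01 lay just under HBL-1. The changes in U-H01 were -4.67 ± 0.09 (a factor of 25.4, adjusted p = 1.05e-12) and -4.62 ± 0.10 (a factor of 24.5, adjusted p = 1.81e-12). Since both genes ended under the lower quartile of the arrays, these factors are lower bounds. In DTX3L uninduced U-H01 was lower than uninduced HBL-1 by 0.90 ± 0.12 (adjusted p = 3.55e-05). In PARP9 it was lower by 0.37 ± 0.12 (adjusted p = 0.0282). The PARP9 call was lost without either uninduced array of B1 or either uninduced HBL-1 array. Quantile normalization (-0.32, adjusted p = 0.063) and a fit over all probe sets (-0.37, adjusted p = 0.0532) lost it too. PARP12 read 8.75, 8.71, 8.57 and 8.28 in uninduced U-H01, 5.08, 5.54, 5.08 and 5.38 in U-H01 labelled induced, 7.51 and 7.62 in uninduced HBL-1 and 7.80 and 7.61 in induced HBL-1. There, too, the labelled induced arrays were the lowest, with a change of -3.31 ± 0.12 (a factor of 9.92, adjusted p = 1.74e-10). PARP14 fell by 1.5, to 7.96, near the 7.86 of uninduced HBL-1.

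Of the last 3 members, GBP2, a guanylate-binding protein also induced by interferon gamma, fell by 2.52 and SP110, of the nuclear bodies, by 0.92. SP100, another nuclear-body gene, read 8.50, 8.40, 7.79 and 7.69 in uninduced U-H01, 7.87, 7.90, 7.76 and 7.88 in U-H01 labelled induced, 8.87 and 9.0 in uninduced HBL-1 and 8.90 and 9.14 in induced HBL-1. The arrays of the U-H01 groups overlapped and the change did not pass (-0.24 ± 0.12, adjusted p = 0.128), while uninduced U-H01 was lower than uninduced HBL-1 by 0.84 ± 0.15 (adjusted p = 0.000455).

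Members that neighbour each other in the genome had changes of like size in some places and of unlike size in others in U-H01, and differences between genes were not tested. The RefSeq gene order holds 12 neighbouring pairs of members, 11 with both genes measured. The pair PARP9 and DTX3L on chromosome 3 fell by 4.62 and 4.67. On chromosome 21, MX1 fell by 4.65 and MX2 by 0.45, and on chromosome 1, IFI44L fell by 6.50 and IFI44 by 4.15. Across the IFIT cluster on chromosome 10 the changes were -3.71 for IFIT2, -1.57 for IFIT3, -1.99 for IFIT1 and 0.20 for IFIT5. SAMD9 read 0.13 beside SAMD9L at -0.93 on chromosome 7, and HERC6 read 0.10 beside HERC5 at -1.49 on chromosome 4. On chromosome 12 the OAS genes read -0.34 for OAS1, -1.64 for OAS3 and -1.04 for OAS2, and on chromosome 2 neither CMPK2 (-0.02) nor RSAD2 (0.08) passed the threshold. In several pairs the low end of the scale limits what can be read. IFI44L, IFI44, PARP9, DTX3L, IFIT1, IFIT2 and HERC5 fell to levels under the lower quartile, so their starting levels bound the size of the fall, HERC6 and RSAD2 lay there in all groups, and MX2 started at 4.95, less than 1 log2 unit above it. IFIT5, SAMD9 and the 3 OAS genes lay above it in every group. The standard errors of these changes lay between 0.08 and 0.13.

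**Figure D3:**
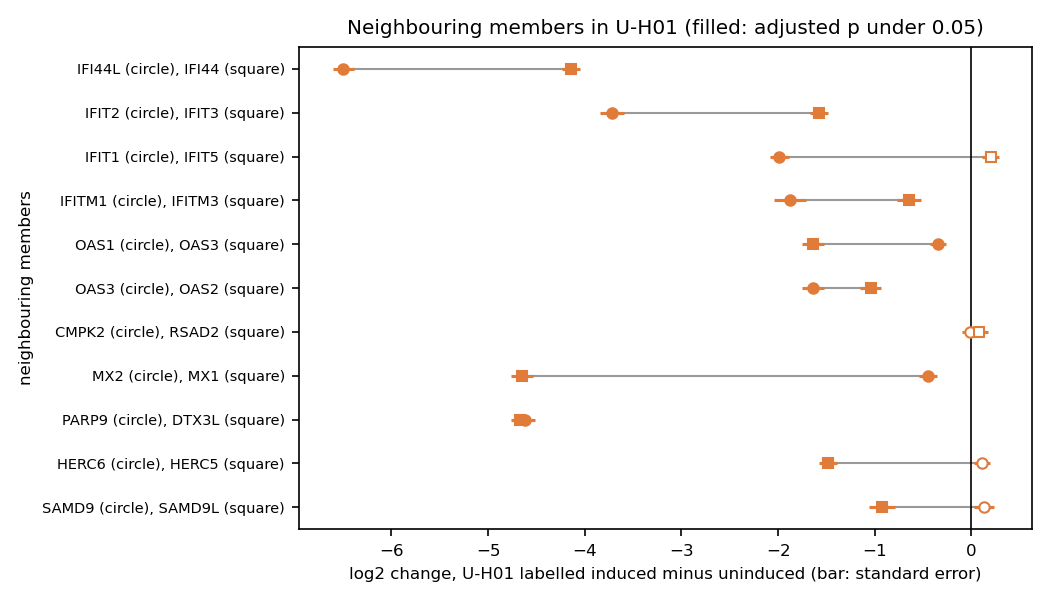
Log2 change in U-H01, labelled induced minus uninduced (horizontal axis), of neighbouring members joined by a line, with the standard error as a bar and filled marks for an adjusted p under 0.05. PARP9 and DTX3L, which both ended near background, coincide near -4.6, while MX2 and MX1 lie at -0.45 and -4.65.

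In HBL-1 a single member passed the threshold. With limma, 1 of 51 rose (TRIM22) and 0 fell, where 0.608% of all genes were called, 0.418% higher and 0.19% lower. At an unadjusted p under 0.05 there were 13 members, where 9.81% of all genes had one. The median change was 0.10, against -0.01 for all genes, and 0 members changed by more than 2-fold, where 0.217% of all genes did. The induced and uninduced arrays did not overlap in 24 members, where 41.3% of all genes did not overlap. In both pairs of time points 25 members were higher and 7 lower. How many of all genes were alike in both pairs was not counted, so no shared rise is read from this. TRIM22 rose by 0.91 ± 0.17 (adjusted p = 0.0322), from 6.70 and 6.65 to 7.34 and 7.83. The call was not held with the replicate block (adjusted p = 0.0509), without uninduced U-H01 replicate 1 (0.0501), or without any 1 of the HBL-1 arrays (0.113 to 0.745). The next smallest p belonged to MX1 (0.69 ± 0.16, adjusted p = 0.093), IFI44L (0.64 ± 0.15, 0.106) and EIF2AK2 (0.46 ± 0.11, 0.107), in each of which both induced arrays exceeded both uninduced ones without passing the threshold. A fit without the U-H01 arrays labelled induced called 3 members higher (TRIM22, MX1 and IFI44L), one without the uninduced U-H01 arrays called 2 (TRIM22 and MX1), and HBL-1 fitted alone called 11. Calls over all genes moved as well, to 1.75%, 0.657% and 5.13% in these 3 fits.

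The change in U-H01 differed from that in HBL-1 in 34 of 51 members, 32 lower and 2 higher, where 32.5% of all genes differed, 17% lower and 15.5% higher. The median difference was -1.13, against 0.04 for all genes. The largest were IFI44L (-7.14 ± 0.19), MX1 (-5.34 ± 0.19), PARP9 (-5.02 ± 0.17) and DTX3L (-4.84 ± 0.16), with adjusted p of 1.06e-10, 8.59e-10, 5.54e-10 and 4.89e-10. IFI16 (0.77 ± 0.22, adjusted p = 0.0181) and ISG20 (0.94 ± 0.19, adjusted p = 0.00176) were the 2 on the other side. Each of the 4 fits that left out 1 HBL-1 array called 1 of these 2 in place of both.

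**Figure D4:**
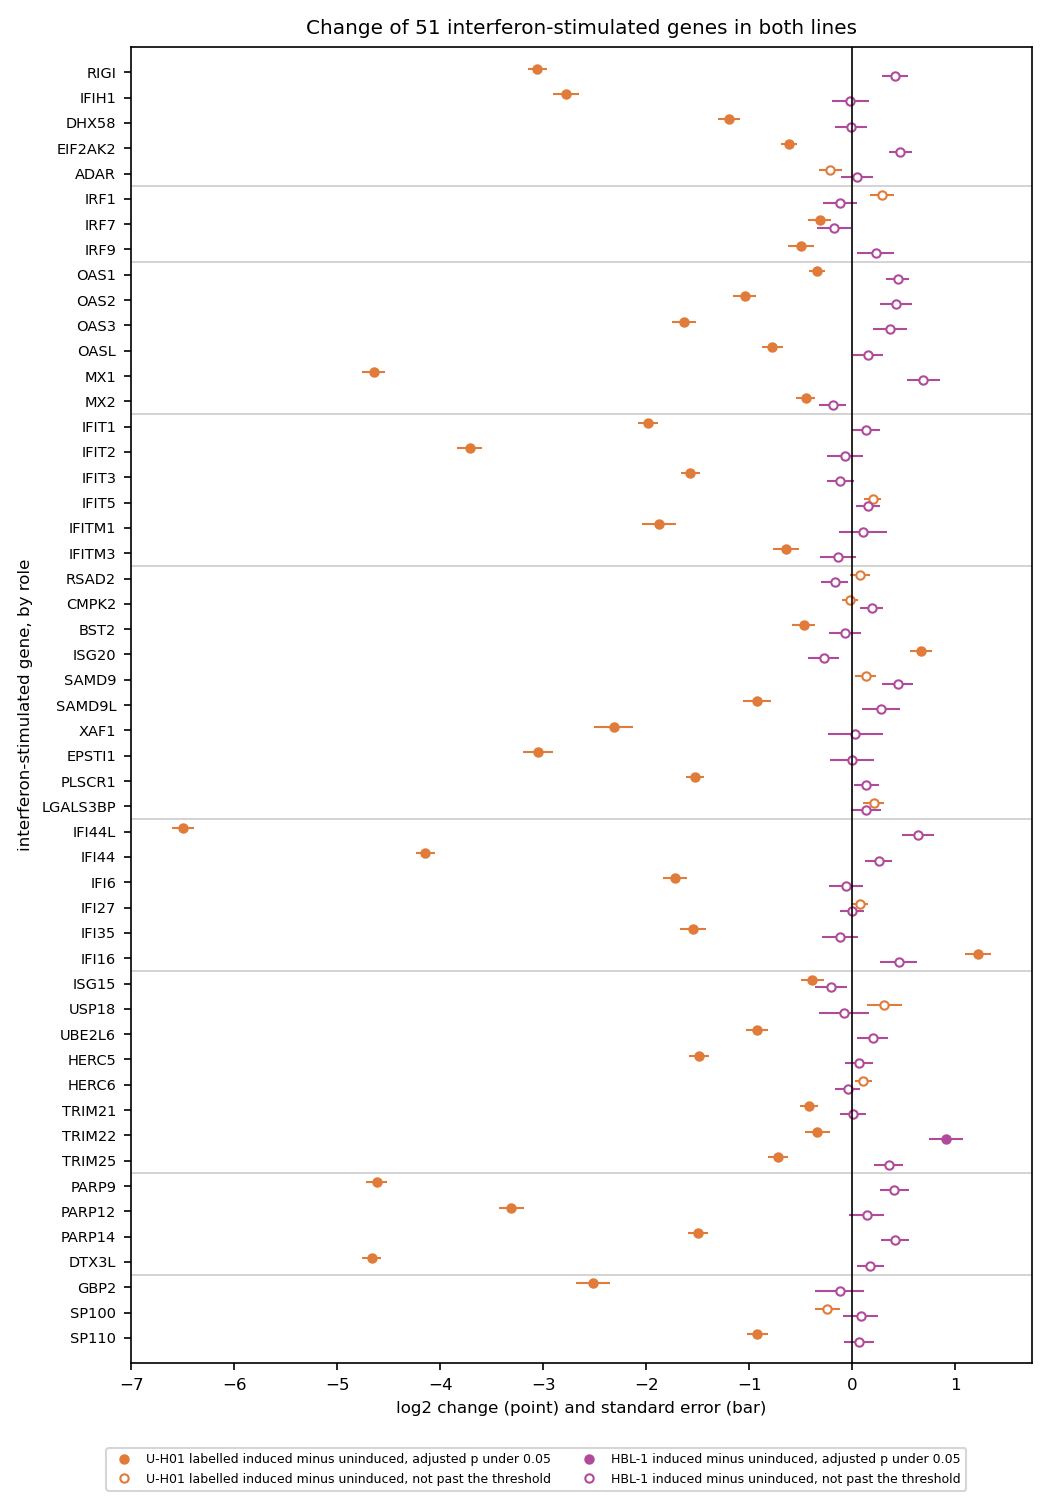
Log2 change of the 51 measured members (rows, in blocks by role) in U-H01 (orange) and HBL-1 (purple), with the standard error as a bar and filled points for an adjusted p under 0.05. The U-H01 points run from -6.50 to 1.22, and the HBL-1 points from -0.28 to 0.91 with TRIM22 the 1 filled.

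Without doxycycline the 2 lines differed in most members. Uninduced U-H01 was higher than uninduced HBL-1 in 33 members, lower in 9, and not past the threshold in 9, where 42.9% of all genes were called, 20.8% higher and 22.1% lower. The median difference was 1.19, against -0.03 for all genes, and the largest were IFI44L (6.55 ± 0.13), IFITM1 (5.25 ± 0.20) and IFI44 (4.22 ± 0.11). The 9 lower members were OAS1, MX2, ISG20, LGALS3BP, IFI16, TRIM22, PARP9, DTX3L and SP100, and without uninduced HBL-1 replicate 1 they numbered 5. The arrays labelled induced were higher than uninduced HBL-1 in 16 members and lower in 11, with 24 not called, where 38.4% of all genes were called, 17.4% higher and 21% lower, and the median difference was 0.07. Without uninduced HBL-1 replicate 1 or 2 the members higher numbered 10 and 9. These comparisons share arrays with each other and with the change in U-H01, so their values are given side by side and not as separate evidence.

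Set side by side, the 3 comparisons placed the members in a few patterns. In 15 members the labelled induced arrays were lower than the uninduced ones, which were higher than HBL-1, and the labelled induced arrays did not differ past the threshold from HBL-1: IFIH1, IRF9, OAS3, OASL, IFIT1, IFIT2, IFIT3, IFITM3, EPSTI1, IFI44L, IFI44, UBE2L6, HERC5, PARP14 and GBP2. In 6 of these, IFIT1, IFIT2, IFI44L, IFI44, HERC5 and GBP2, both groups lay under the lower quartile, so that comparison sets background against background. IRF9 and IFITM3 were not called higher in uninduced U-H01 without uninduced HBL-1 replicate 1 (adjusted p = 0.079 and 0.385). In 11 others, RIGI, DHX58, EIF2AK2, OAS2, IFITM1, BST2, SAMD9L, XAF1, IFI6, IFI35 and TRIM25, the labelled induced arrays stayed higher than HBL-1. Many of these calls rested on the 2 uninduced HBL-1 arrays: DHX58, BST2, XAF1 and IFI6 lost theirs without either one, TRIM25 without replicate 1 and RIGI and IFI35 without replicate 2, with adjusted p between 0.071 and 0.613. DHX58 lost its call in 13 of the settings run, 10 of them with 1 array left out. MX1, PLSCR1 and PARP12, 3 members, went from higher than HBL-1 to lower. In 5, OAS1, MX2, TRIM22, PARP9 and DTX3L, uninduced U-H01 was already lower than HBL-1 and the labelled induced arrays lower still, but OAS1, TRIM22 and PARP9 were not called in the former without uninduced HBL-1 replicate 1 (adjusted p = 0.371, 0.252 and 0.241). ADAR, IRF1, SAMD9 and USP18, 4 members, were higher than HBL-1 in both U-H01 groups and did not pass between them. Another 4, RSAD2, CMPK2, IFI27 and HERC6, passed none of these tests. The median of the members' group means was 7.51 in uninduced U-H01, 6.25 in U-H01 labelled induced, 6.47 in uninduced HBL-1 and 6.38 in induced HBL-1. Over the 51 members, uninduced U-H01 arrays correlated with labelled induced ones at 0.538 to 0.611 and with uninduced HBL-1 at 0.417 to 0.441, and labelled induced ones with uninduced HBL-1 at 0.573 to 0.607. These correlations are across genes, which are not independent replicates, and describe arrays normalized together.

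The populations B1 and B2 of U-H01 gave like counts of falls, 37 and 34 of 51, where 20.9% and 19.4% of all genes were called lower. The size of the change differed past the threshold in 2 members, both higher in B2, where 0.608% of all genes differed, 0.38% higher and 0.228% lower. XAF1 fell by 2.90 ± 0.12 in B1 and fell by 1.73 ± 0.12 in B2, a difference of 1.17 ± 0.17 (adjusted p = 0.0139). USP18 read -0.19 ± 0.13 in B1, which did not pass, and rose by 0.81 ± 0.13 in B2, a difference of 0.99 ± 0.18 (adjusted p = 0.0357). Without any 1 of the 4 uninduced U-H01 arrays, 0 members differed, and leaving out any 1 of the other 8 arrays gave 1 or 2. Between the time points 0 of 51 members passed in U-H01 and 0 in HBL-1, as did 0% of all genes in limma, with 2 and 3 members at an unadjusted p under 0.05, among 1440 and 787 of all genes.

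Other genes of the pathway, from lists that hold no member, gave a mixed picture in U-H01. Of 16 interferon genes, the ligands, 1 rose (IFNA13, 0.25 ± 0.09) and 0 fell. Of 6 receptor chains 4 rose and 0 fell: IFNAR2 (1.62 ± 0.10), IFNGR1 (1.07 ± 0.10), IL10RB (1.04 ± 0.08) and IFNAR1 (0.45 ± 0.10). All 4 measured kinases and STATs changed. The receptor kinase JAK2 read 9.61, 9.45, 9.29 and 9.29 in uninduced U-H01, 6.30, 6.21, 6.06 and 6.0 in U-H01 labelled induced, 5.84 and 5.94 in uninduced HBL-1 and 6.36 and 6.90 in induced HBL-1, and its fall was 3.27 ± 0.08 (adjusted p = 7.68e-12), while JAK1 (2.04 ± 0.10), STAT3 (0.83 ± 0.14) and TYK2 (0.58 ± 0.08) rose. In JAK2 every uninduced U-H01 array lay above every other array. Of 5 other IRF genes 3 rose and 2 fell, led by IRF8 (1.47 ± 0.10), IRF2 (1.25 ± 0.09), IRF5 (-0.86 ± 0.08) and IRF4 (0.75 ± 0.07). Of 15 sensors and adaptors 7 rose and 2 fell, with IKBKE (2.51 ± 0.16), a kinase that activates IRF proteins, TRAF3 (1.83 ± 0.11), AIM2 (1.81 ± 0.11) and TRAF6 (-1.62 ± 0.14) the largest. The 6 genes that restrain the pathway divided into 3 and 3, and SOCS1, an inhibitor of JAK kinases, fell by 2.57 ± 0.11, SOCS3 by 1.02 ± 0.11 and PTPN1 by 1.0 ± 0.07, while PTPN6 rose by 1.12 ± 0.13.

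Targets typical of interferon gamma, 16 measured, fell in 9 and rose in 4, with the largest changes in GBP5 (-3.42 ± 0.12), WARS1 (-2.19 ± 0.15), TAP1 (-2.11 ± 0.09), which carries peptides for antigen presentation, and PSMB9 (-1.53 ± 0.08), a subunit of the immunoproteasome. Of 22 other interferon-induced genes 9 fell and 6 rose, led by APOBEC3G (1.95 ± 0.15), RNF213 (1.89 ± 0.14), DDX60 (-1.84 ± 0.15) and IFI30 (-1.62 ± 0.10). These shares stand beside the 45.8% of all genes called, and the lists, too, were chosen with earlier results of these data known. In HBL-1, 4 genes of all these lists passed in limma, where 0.608% of all genes were called. IFNAR2 rose by 0.72 ± 0.14 (adjusted p = 0.0362), JAK2 by 0.74 ± 0.12 (adjusted p = 0.0155) and SAMHD1, which depletes nucleotides, by 0.59 ± 0.11 (adjusted p = 0.0319). IDO1, which breaks down tryptophan, fell by 1.99 ± 0.16 (adjusted p = 0.000208). IDO1 read 3.81, 3.84, 3.95 and 3.64 in uninduced U-H01, 3.75, 4.14, 4.18 and 3.90 in U-H01 labelled induced, 10.0 and 9.97 in uninduced HBL-1 and 7.86 and 8.13 in induced HBL-1. All HBL-1 arrays exceeded all U-H01 arrays, and the HBL-1 groups did not overlap. JAK2 was thus called lower in U-H01 and higher in HBL-1, and IFNAR2 higher in both. The HBL-1 calls of these lists rest on 2 arrays in each group. No result with an HBL-1 array left out is given for them, so their stability is not known.

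**Figure D5:**
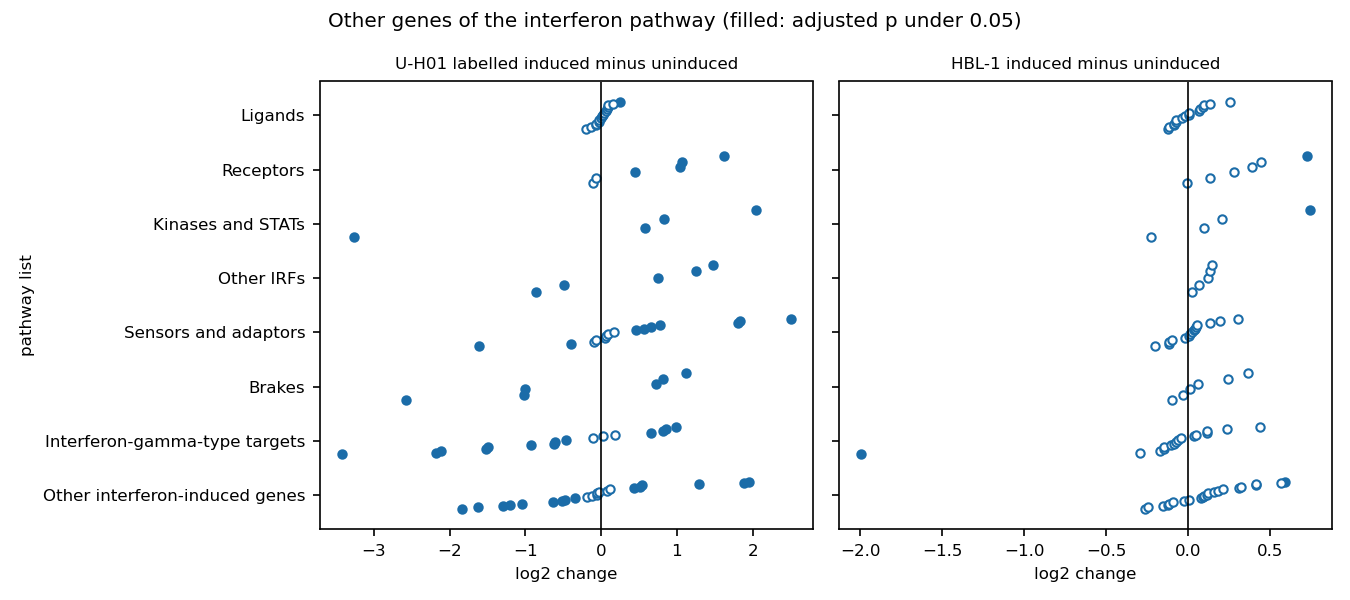
Log2 change (horizontal axis, a separate scale for each line) of the genes of 8 pathway lists (rows) in U-H01 and HBL-1, 1 point a gene, filled for an adjusted p under 0.05. Receptors lie to the right of 0 or near it in U-H01, JAK2 lies at -3.27, and in HBL-1 the 4 filled points are IFNAR2, JAK2, IDO1 and SAMHD1.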

How the data were processed

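RNA from the 12 cell line samples was hybridised to 1-colour arrays. The values are log2 levels as the authors deposited them. The submitters' processing notes name RMA and Partek, without versions. RMA brings the arrays to like distributions, which can hide a shift shared by all genes. The table held 33297 probe sets, of which 19460 carried 1 symbol, 1754 several and 12083 none in the platform annotation, leaving 18417 genes with 1 probe set each. All comparisons came from 1 model of the 12 arrays in limma 3.58.1 (R 4.3.3), with lmFit and eBayes. Its 7 terms were population, time point within each line and induction within each line. A second fit gave each population its own induction term, to compare B1 with B2. Tests were two-sided, with Benjamini-Hochberg adjustment over all genes.

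Simulated data over 18417 genes left 18217 of them unchanged. There the U-H01 comparison recovered 63 of 67 genes changed 2-fold and 27 of 67 changed 1.41-fold. The HBL-1 comparison recovered 55 of 67 and 6 of 67. In the real U-H01 comparison 45.8% of all genes were called, so its recovery may differ from these rates. Arrays of one population and time point form pairs, since the labels' protocols give them as parts of 1 transduced population. The main fit held population and time point as separate terms and had no term for each pair. The replicate block, an alternative fit, gave each pair its own term. Within pairs, deviations from the group means correlated at -0.03 to 0.14. Per-array values are given for the 8 largest falls and rises past the threshold in U-H01, the members called or with the 4 smallest p in HBL-1, those that go against the majority between the uninduced lines, and IRF1, IRF7 and IRF9. Pathway lists are given by counts and by up to 4 largest called genes. Members and lists were chosen with earlier results of these data known. Alternatives were other models, normalizations, filters and probe-set choices, leaving out each array, and fits without either U-H01 group, the last chosen after seeing the data. The number of arrays limits the precision. Figures were drawn with matplotlib 3.10.9.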

Additional observations from a re-analysis of the deposited data

Results flagged for a closer look

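Arrays that stood apart from the rest of their group were sought in the 2 U-H01 groups, which made 102 tests of 4 arrays, and 7 were found, where chance gives about 1 in 20. In uninduced U-H01 the lowest array of IRF1 read 7.79, the highest of IFIT1 6.30 and the highest of GBP2 6.88. In U-H01 labelled induced the lowest array of ADAR read 10.30 and that of IFI35 8.0, and the highest of IFITM1 read 8.91 and that of RSAD2 4.40.

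The change in U-H01 differed from that in HBL-1 past the threshold, by the interaction test in limma, in 34 members, 2 of them higher in U-H01. The differences in log2, U-H01 minus HBL-1, were -3.47 for RIGI, -2.76 for IFIH1, -1.19 for DHX58 and -1.07 for EIF2AK2 among the sensors, and -0.72 for IRF9. IRF9 lost this call without uninduced U-H01 replicate 1 or 2, after median centring and over all probe sets of the table. Without any 1 of the HBL-1 arrays both IRF9 and IFI16 lost it. The differences were -0.78 for OAS1, -1.47 for OAS2, -2.0 for OAS3, -0.93 for OASL and -5.34 for MX1. For the IFIT and IFITM genes they were -2.12 (IFIT1), -3.64 (IFIT2), -1.46 (IFIT3) and -1.98 (IFITM1). Other effectors gave 0.94 (ISG20), -1.20 (SAMD9L), -2.35 (XAF1), -3.05 (EPSTI1) and -1.66 (PLSCR1), and the IFI genes -7.14 (IFI44L), -4.40 (IFI44), -1.66 (IFI6), -1.43 (IFI35) and 0.77 (IFI16). The ubiquitin genes gave -1.13 (UBE2L6), -1.55 (HERC5), -1.25 (TRIM22) and -1.08 (TRIM25), and the last group -5.02 (PARP9), -3.45 (PARP12), -1.91 (PARP14), -4.84 (DTX3L), -2.40 (GBP2) and -0.98 (SP110). The change in B2 differed from that in B1 by 1.17 in XAF1 and 0.99 in USP18.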

How the results depend on the processing

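No member called in the changes within U-H01 or HBL-1, or between the lines, changed direction under any alternative run. Of the counts of members called, 297 stayed within 1.5 times their value and 43 did not. The 297 include counts of 0 that stayed 0, such as those between the time points of U-H01. In U-H01 the members called higher, 2 with the deposited values, were 5 after quantile normalization, 9 after median centring and 4 among probe sets above the median level, where 35 members remained. With the replicate block, the fit in which the pairs of population and time point were a block, 0 members were called higher in HBL-1 in place of 1, and no other count moved by over 1.5 times. That HBL-1 count was also 0 over all probe sets of the table, 11 with HBL-1 arrays alone, 3 without the U-H01 arrays labelled induced and 2 without the uninduced ones. Members higher in uninduced U-H01 than in HBL-1 were 21 among probe sets above the median level. The members in which B2 exceeded B1 were 1 with U-H01 alone, 4 with trend and robust options and 0 over all probe sets, and those in which B1 exceeded B2 were 1 in place of 0 with trend and robust options, quantile normalization, median centring or the mean of a gene's probe sets. Between the time points of HBL-1, 1 member was lower with HBL-1 alone. The cause of these moves was not tested.

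Leaving out 1 array at a time gave 2 to 4 members higher and 36 to 38 lower in U-H01, and 0 to 1 higher and 0 lower in HBL-1. It gave 31 to 34 higher and 5 to 9 lower between the uninduced lines, and 9 to 16 and 10 to 11 between U-H01 labelled induced and HBL-1. The difference of the 2 changes gave 1 to 2 higher and 31 to 34 lower, and B2 minus B1 gave 0 to 2 higher and 0 to 1 lower. The model with group means alone gives no value for B2 minus B1 or for time.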
